A study of Mus musculus with 16 samples.

Results

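The genes described here are 8 receptors best known from natural killer (NK) cells, Klrd1, Klrc1, Klrk1, Klrb1c, Klrb1f, Klra17, Cd96 and Cd226, of the 31093 gene names on a mouse expression array. They were chosen by their array signal, since Klrd1 and Cd96 were lower in common dendritic cell progenitors (CDPs) of tumor-bearing mice, so that difference is described and not tested, and the other comparisons were read for what the choice did not use. RNA came from sorted bone marrow macrophage-dendritic cell progenitors (MDPs) and CDPs of female C57/Bl6 mice, 4 arrays for each of 4 groups: MDPs and CDPs of tumor-free, age-matched mice (labelled Normal) and of mice with an orthotopic mammary tumor grown from the PyMT B6 line to 1.5 cm in diameter (labelled PyMT). All tumors thus came from a single cell line, itself grown out of an MMTV-PyMT tumor of C57/Bl6 mice, in otherwise unmodified hosts. Per the study's methods, marrow was depleted of lineage-positive cells before sorting, and each sample pooled a pair of mice.

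NK-type receptors tune killing by balancing inhibitory and activating signals. CD94, the product of Klrd1, pairs with NKG2A, the product of Klrc1, to form an inhibitory receptor for the nonclassical class I molecule Qa-1, encoded by H2-T23. NKG2D, the product of Klrk1, is an activating receptor for the stress ligands of the Rae-1, H60 and MULT1 families. Klrb1c encodes NK1.1, Klrb1f encodes NKR-P1F, a receptor for Clr-family lectins, and Klra17 encodes Ly49Q, an inhibitory Ly49 receptor known from plasmacytoid dendritic cells (pDCs) and other myeloid cells. CD96 and CD226 are immunoglobulin-family receptors that share the ligand CD155, encoded by Pvr, with CD226 the activating member of the pair. Dendritic cell progenitors are not a classical site of these receptors, although dendritic cells are known to carry some of them.

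The 8 genes were read by 12 probes of 60 bases, each printed as 1 spot. The probes behind the results below are given in the order of bases in which the array files list them, those of Cd96 and the second Klrb1c probe whole and the others by their first 30 bases.

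Klrd1: tctcatacatttgtacccaagtaatttata
Cd96: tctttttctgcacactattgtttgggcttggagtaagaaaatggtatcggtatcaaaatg
Klrb1f: ggtttgtattgattgacactcgccaactag
Klrk1: aagcaaggcactatatttgaaagtatatag
Klrb1c, probe A_55_P1979147: tgcttatgaagttggtatgctgaagacagt
Klrb1c, probe A_52_P599514: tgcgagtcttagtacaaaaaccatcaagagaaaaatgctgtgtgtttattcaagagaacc

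The Klrd1 and Cd96 probes are shown because those genes chose the set, the Klrb1f probe because it was above background on every array, the Klrk1 probe because of its listed position, and the Klrb1c pair because the probes of that gene disagreed. On build mm9, the build of the array files, the Klrd1 probe lies at chr6:129548612-129548671 on the plus strand and the Cd96 probe at chr16:46038560-46038619 on the minus strand. The Klrb1f probe lies at chr6:129006941-129007000 on the plus strand. The Klrk1 probe is listed at chr16:78233089-78233148, whereas RefSeq places Klrk1 on chromosome 6, so the level called Klrk1 below rests on the name in the array files. No member probe shared a run of 25 bases with any other probe of the array, on either strand. No annotation of this build was used here, so exons and introns are not given.

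Signals are given as log2 of the processed signal minus the 75th percentile of the same array, so that 0 is the level of that percentile and probes at background lie near -7.4. Between 58.8% and 71.5% of the 39429 probes were well above background on an array, and 27433 probes that were so on at least 3 of 4 arrays of a group were tested. Flt3, Csf1r, Kit, Cx3cr1 and Irf8, taken here as markers of MDPs and CDPs, were above background on all 16 arrays. Kit, the stem cell factor receptor, was lower in CDPs than in MDPs of tumor-free mice by a log2 difference of -2.59 (SE 0.20, limma adjusted p = 3.8e-06). The arrays lay on 4 slides, each scanned on its own, and every slide held 3 or 4 of the groups, so differences are also given within slides. Cells were not counted in these data, so fewer cells of a type and less RNA per cell cannot be told apart.

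Of the 12 probes, 1 was above background on all 16 arrays (Klrb1f) and 3 were above it on none, which were the Klrc1 probe A_55_P2004652, the Klrb1c probe A_52_P599514 and the Klra17 probe A_55_P2157859. The 6 probes that passed the filter belong to Klrd1, Cd96, Cd226, Klrk1, Klrb1c and Klrb1f. The Klrd1 and Cd226 probes passed it through tumor-free CDPs alone, so a lower level elsewhere was built into their passing. The counts per group are shown in the plot of detection.

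**Figure D1:**
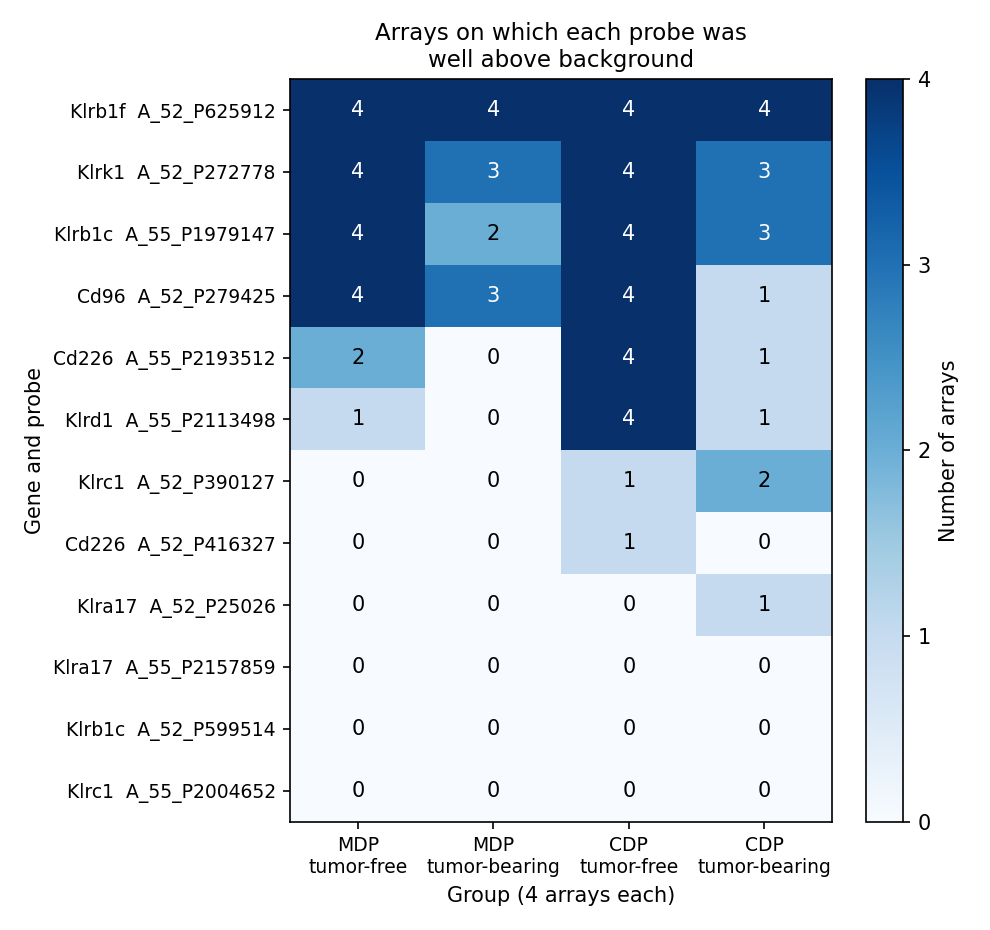
Number of arrays, of 4 in each group, on which each of the 12 probes was well above background. Rows are probes and columns are the 4 groups. Klrb1f was above background on all 16 arrays, Klrd1 and Cd226 on 4 of 4 arrays of tumor-free CDPs and on at most 2 of 4 in any other group, and the lowest 3 rows on none.

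Klrd1, which encodes CD94, was high in a single group. In tumor-free CDPs its signal was -2.24, -2.17, -2.26 and -0.55 on the 4 arrays. In CDPs of tumor-bearing mice it was -6.03, -7.58, -7.40 and -4.46, with 1 of these 4 arrays above background. The groups did not overlap, and the lowest tumor-free array lay above the highest tumor-bearing array. The means were -1.81 ± 0.84 and -6.37 ± 1.45 (SD, n = 4 each), a difference of -4.56, whose size depends on the background level since 3 of the 4 tumor-bearing arrays were not above it. As processed signal this was 773 to 3146 in tumor-free and 23.5 to 176 in tumor-bearing CDPs. Within the slides that held both groups the difference was -5.14, -2.22 and -4.63, and with normexp background correction in place of the scanner's it was -2.35. In MDPs Klrd1 was above background on 1 of 4 tumor-free arrays and on none of the tumor-bearing arrays. The tumor-free MDP signals were -7.29, -3.84, -6.28 and -5.05, and the tumor-bearing ones lay between -7.42 and -7.20.

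Klrc1, the partner chain of CD94 in the inhibitory receptor, was near background. Its probe A_52_P390127 was above background on 1 array of tumor-free CDPs and on 2 arrays of tumor-bearing CDPs, with group means of -5.31 ± 0.42 and -5.64 ± 1.01, and on no MDP array. Its other probe was above background on no array. Klrc1 thus has no tested value.

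Klrk1, which encodes NKG2D, was dim but above background on 14 of 16 arrays. In tumor-free CDPs the signals were -3.94, -4.06, -4.11 and -2.75. In tumor-bearing CDPs they were -5.29, -4.50, -4.35 and -4.92. The groups did not overlap, and the means differed by -1.05 (-3.71 ± 0.65 against -4.76 ± 0.42, n = 4 each), which did not pass the thresholds used for all probes. The difference was -0.24, -0.98 and -0.83 within the slides that held both groups. With normexp background correction it was -0.46. In MDPs the tumor-free mean was -4.51 ± 0.38 and the tumor-bearing mean -4.81 ± 0.39.

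Klrb1c, which encodes NK1.1, was level across the groups at its brighter probe. The 4 group means lay between -4.67 and -4.41, and the probe was above background on 13 of 16 arrays. The second Klrb1c probe, printed above for comparison, stayed at background on all 16 arrays, with means between -7.44 and -7.25. The pair therefore disagreed on whether Klrb1c is measured above background in these cells.

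Klrb1f, which encodes NKR-P1F, was above background on every array. In tumor-free MDPs the signals were 0.31, 0.81, 0.37 and 0.29, and in tumor-bearing MDPs -0.06, -0.71, 0.11 and -0.64. In tumor-free CDPs they were 1.30, 1.25, 1.46 and 1.68, and in tumor-bearing CDPs 1.02, 0.52, 1.09 and 0.33. Tumor-free CDPs were highest and tumor-bearing MDPs lowest, without overlap between tumor-free and tumor-bearing arrays of the same progenitor. Tumor-free MDPs and tumor-bearing CDPs, neighbours in this order with means of 0.45 ± 0.25 and 0.74 ± 0.37, overlapped. In CDPs the means differed by -0.68 (1.42 ± 0.19 against 0.74 ± 0.37), and by -0.37, -0.97 and -0.48 within slides.

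Klra17, which encodes Ly49Q, was above background on 1 of 16 arrays, tumor-bearing CDP replicate 2, where the probe A_52_P25026 read -3.61. The other tumor-bearing CDP arrays read -5.51, -7.43 and -7.45. On all tumor-free arrays the probe lay between -7.65 and -7.24. This probe has no mm9 position in the array files. The mapped Klra17 probe A_55_P2157859 read -7.44 on tumor-bearing CDP replicate 2.

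Cd96 was above background on all 8 tumor-free arrays. In tumor-free CDPs its signals were -2.92, -2.68, -2.83 and -2.02. In tumor-bearing CDPs they were -3.82, -7.55, -7.41 and -7.28, so that 1 array kept a signal above background. The groups did not overlap. The means were -2.61 ± 0.41 and -6.51 ± 1.80, a difference of -3.90 that also rests on 3 tumor-bearing arrays at background, and it was -4.58, -4.37 and -3.00 within the slides that held both groups. With normexp background correction it was -1.42 and not past the thresholds used for all probes. In MDPs the tumor-free signals were -1.88, -2.69, -3.52 and -3.04 and the tumor-bearing ones -4.57, -2.57, -6.04 and -3.02, which overlapped. Klrd1 and Cd96 thus differed in where they were high: Cd96 was at similar levels in tumor-free MDPs and CDPs, whereas Klrd1 was above background on 1 of 4 and 4 of 4 of those arrays.

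Cd226, the activating receptor that shares a ligand with CD96, was above background on all 4 tumor-free CDP arrays at its brighter probe. The tumor-free CDP signals were -4.74, -3.69, -3.22 and -2.55. The tumor-bearing ones were -7.49, -5.87, -7.37 and -3.91, with 1 array above background, and they overlapped the tumor-free ones. The means differed by -2.61 (-3.55 ± 0.92 against -6.16 ± 1.67), and by -4.15, 0.83 and -3.00 within slides, so the direction turned on slide 3. With normexp background correction the difference was -0.94. The second Cd226 probe was above background on 1 of 16 arrays, tumor-free CDP replicate 5.

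**Figure D2:**
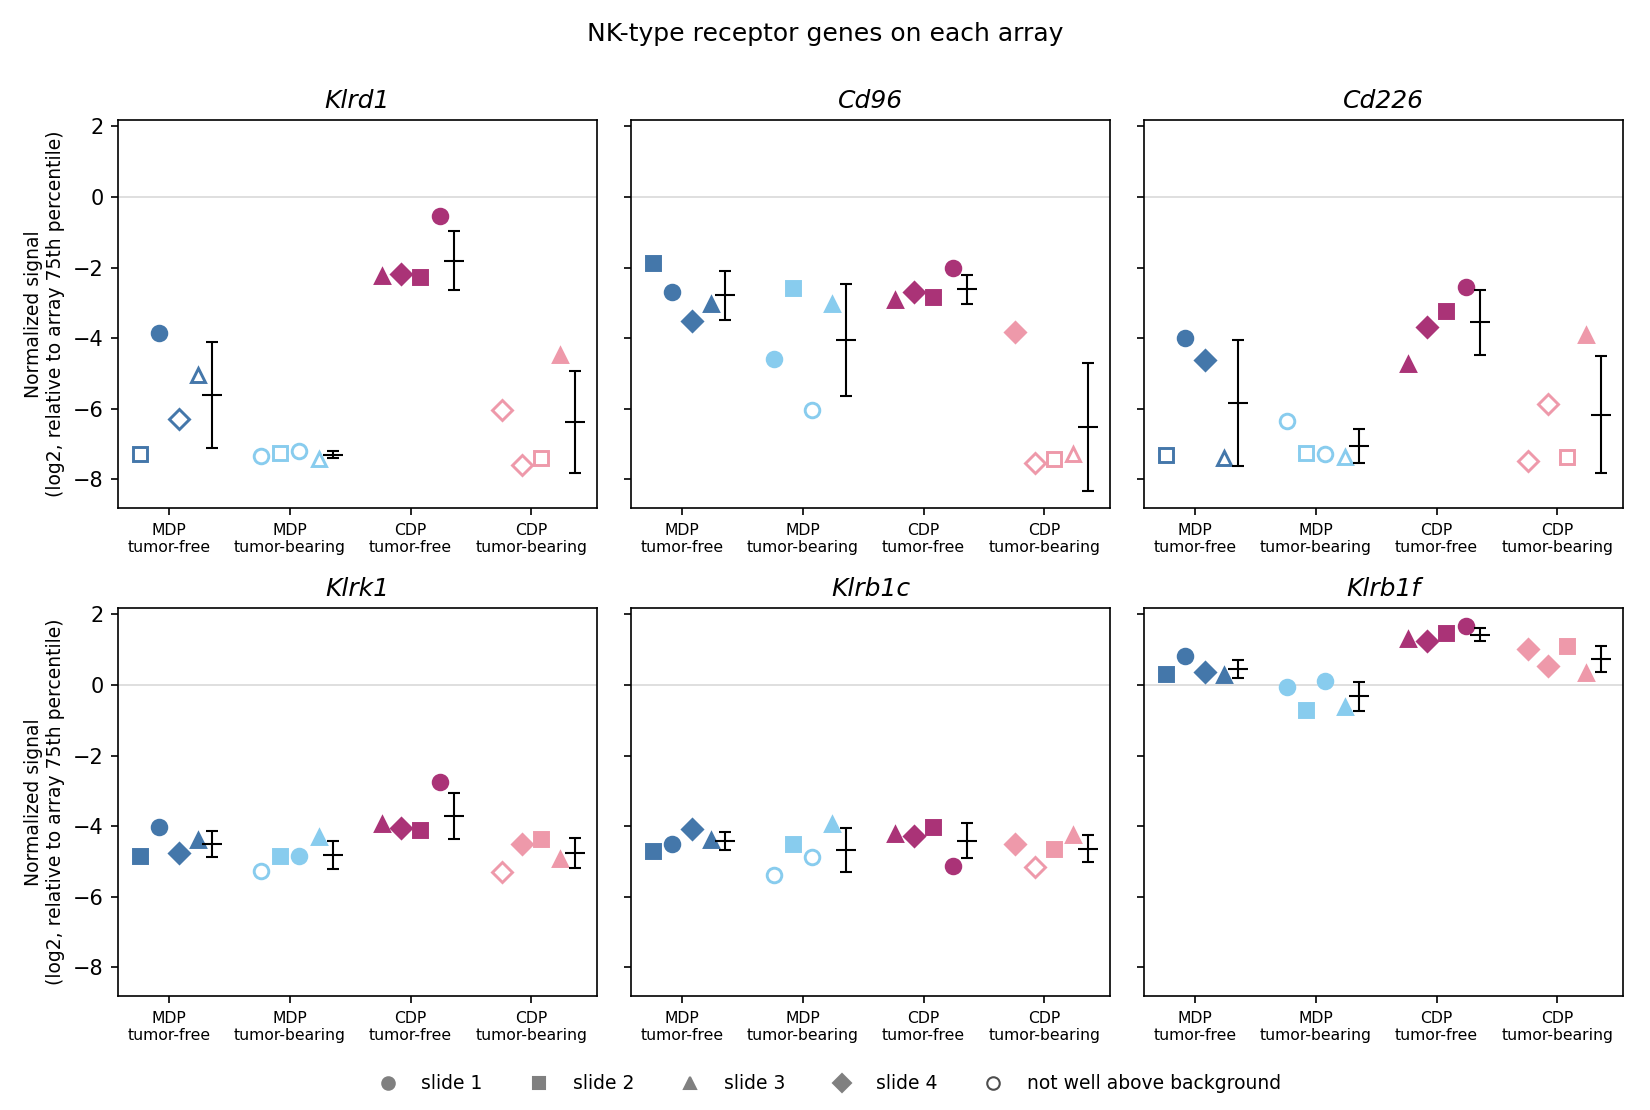
Normalized signal (log2, relative to the 75th percentile of the array) of the 6 genes that passed the filter, for each array of the 4 groups. Each point is an array, its shape gives the slide, open points were not well above background, and the bars are the mean and SD of 4 arrays. Klrd1 in tumor-free CDPs lies between -2.26 and -0.55, above every other Klrd1 point, and Klrb1f is above background throughout.

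Across all probes, 491 passed an adjusted p under 0.05 with a fold above 1.5 between tumor-bearing and tumor-free CDPs (1.79% of those tested), 271 of them lower (0.988%). Of the members, the Klrd1 and Cd96 probes were past these thresholds, both lower, and nothing is read from that count since the same contrast chose them. By their adjusted p, Klrk1 at -1.05, Cd226 at -2.61 and Klrb1f at -0.68 were not past the thresholds. This too is a description, since CDP values chose the set. Cd96 lost its place without any single tumor-free CDP array, or without tumor-bearing CDP replicate 3, 4 or 5. Groups that did not overlap, with tumor-bearing lower, were found for 5.32% of tested probes in CDPs, among them Klrd1, Cd96, Klrk1 and Klrb1f.

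The stated reason for choosing the genes was a CDP difference and not the tumor comparison in MDPs, which no member passed. The MDP test is still not fully independent of the choice, since earlier results of these data were known. Its fit also drew the spread from all groups, CDPs included, and MDP and CDP arrays shared slides. Klrd1 and Cd226 entered it only because tumor-free CDPs carried them through the filter. Over all probes, 17 were called (0.062% of those tested) by limma with Benjamini-Hochberg adjustment, and 2849 had an unadjusted p under 0.05 (10.4%). All 6 members that passed the filter had a lower mean in tumor-bearing MDPs, as did 10378 of 17256 tested genes with a symbol. So did 12 of 12 tested T cell markers and 14 of 15 tested other NK-type receptors. The shared direction is therefore not particular to the members. With quantile normalization, which moved the median difference of all tested probes from -0.115 to 0.001, the means of Klrk1 and Klrb1c were instead higher in tumor-bearing MDPs, at 0.28 and 0.29. Klrb1f differed by -0.77 (95% interval -1.26 to -0.28, SE 0.23, limma adjusted p = 0.297), a 1.71-fold lower level in tumor-bearing MDPs with no overlap of the arrays. The exact two-sided permutation p was 0.0286, the smallest that the 70 relabelings of 4 against 4 arrays allow, and 2.42% of tested probes were lower in tumor-bearing MDPs without overlap. Within slides the Klrb1f difference was -0.79, -1.03 and -0.93. With the slide as a fixed block it was -0.90 (limma adjusted p = 0.0649), and with the slide as a random block -0.87 (limma adjusted p = 0.0285), which passed.

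The other 5 members did not pass in MDPs. For Klrd1 the tumor-bearing arrays were all at background, so its fitted difference of -1.68 (SE 0.74) is no fold (limma adjusted p = 0.466), and the exact permutation p was 0.0857, where the means were -5.61 ± 1.50 and -7.30 ± 0.10. Cd96 differed by -1.27 (95% interval -3.05 to 0.51, limma adjusted p = 0.578), and this was -2.62, -0.69 and 0.02 within slides. Without tumor-bearing MDP replicate 4 it was -0.60. Cd226 was at background on all tumor-bearing MDP arrays and above it on 2 tumor-free ones (limma adjusted p = 0.600). Klrk1 differed by -0.30 (95% interval -0.999 to 0.391) and Klrb1c by -0.25 (95% interval -0.92 to 0.42), both with the sign turned by quantile normalization as given above. These intervals leave room for changes in both directions. The tumor comparisons in CDPs and MDPs are set side by side and their difference was not tested, because the CDP values chose the genes.

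**Figure D3:**
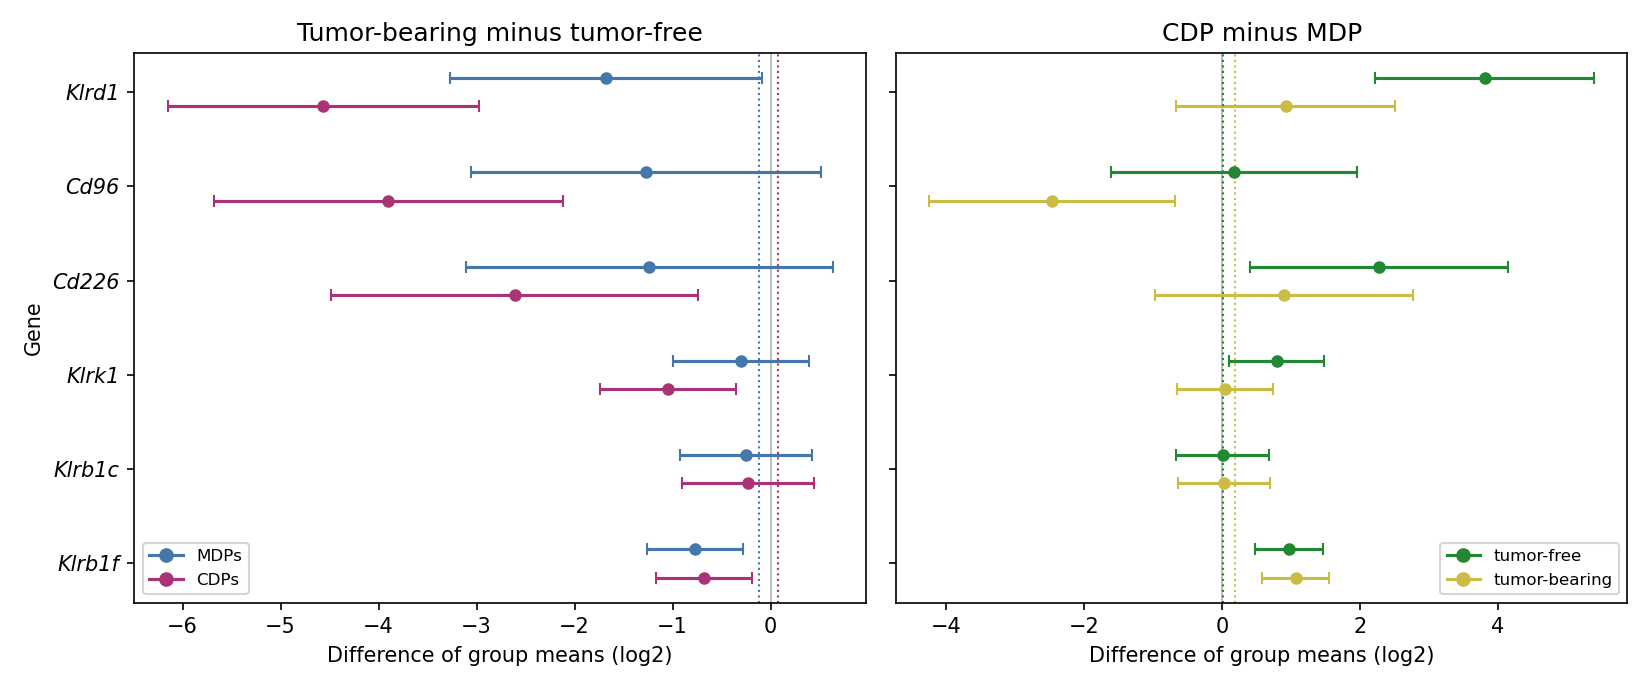
Differences of group means (log2) with 95% intervals from the limma fit for the 6 genes that passed the filter; left, tumor-bearing minus tumor-free in MDPs and CDPs, right, CDP minus MDP in tumor-free and tumor-bearing mice. Dotted lines are the medians of all tested probes, and values of Klrd1 and Cd226 set against groups at background are not folds. The CDP intervals on the left are a description and no test, since CDP values chose the genes. On the right this also holds for Klrd1, Cd96 and Cd226. Klrd1 in CDPs lies at -4.56 and Klrb1f between -0.77 and -0.68 in the left panel, where the MDP values of Klrk1 and Klrb1c turn positive with quantile normalization.

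The step from MDP to CDP is read with its test for Klrb1f, Klrk1 and Klrb1c, since Klrd1 and Cd96 chose the set and Cd226 passed the filter only through its high group. Over all probes, 804 were higher in CDPs of tumor-free mice (2.93%) and 968 in CDPs of tumor-bearing mice (3.53%). Klrb1f was called in both, and was the only 1 of these 3 to be so. It was higher in CDPs by 0.98 in tumor-free mice (1.97-fold, SE 0.23, limma adjusted p = 0.0192) and by 1.07 in tumor-bearing mice (2.10-fold, SE 0.23, limma adjusted p = 0.0118), without overlap of the arrays in either, as were 6.57% and 6.96% of tested probes. Both exact permutation p-values were 0.0286. The difference was 0.86, 1.15, 1.02 and 0.89 within the 4 slides in tumor-free mice, and 1.81 and 0.97 within the 2 slides that held both tumor-bearing groups. The call in tumor-free mice was lost without MDP replicate 2, 4 or 5 (limma adjusted p = 0.0607, 0.0518 and 0.0625) and without CDP replicate 4 or 5 (0.0528 and 0.0541), with differences of 0.89 to 0.97.

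Klrk1 was higher by 0.79 in tumor-free CDPs than MDPs (95% interval 0.10 to 1.49, limma adjusted p = 0.205), or by 0.07 with normexp background correction, and by 0.05 in tumor-bearing mice, a value that is -0.67 with quantile normalization. Klrb1c differed by 0.01 and 0.03 in the tumor-free and tumor-bearing comparisons, values that are -0.06 and -0.67 with quantile normalization. For Klrd1, Cd96 and Cd226 the values are given without a test. Klrd1 was higher by 3.81 in tumor-free CDPs than in tumor-free MDPs, by 2.80 to 5.03 within each of the 4 slides, and by 1.58 with normexp background correction. Cd96 differed by 0.17 in tumor-free mice and by -2.46 in tumor-bearing mice, the latter -0.78 with normexp. Cd226 was higher by 2.28 in tumor-free CDPs, or by 0.28 with normexp.

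The members did not vary together on all arrays. Tumor-free CDP replicate 5 had the highest signal of its group for 5 of the 6 genes that passed the filter and the lowest for Klrb1c. Tumor-free MDP replicate 3 was highest in its group for 4 of the 6, Klrd1, Cd226, Klrk1 and Klrb1f. Both of these arrays lay on slide 1. Among tumor-bearing CDPs the signals above background fell on different arrays: Klrd1 and Cd226 were above background on replicate 5 alone, and Cd96 and Klra17 on replicate 2 alone. Across the 16 arrays, which share groups and slides, Pearson's r with Klrd1 was 0.838 for Cd226, 0.753 for Klrb1f, 0.748 for Klrk1 and 0.433 for Cd96, and Spearman's rho was 0.635, 0.650, 0.512 and 0.488. These arrays include the CDP values that chose Klrd1 and Cd96. Klrd1 and Cd226 also passed the filter through tumor-free CDPs alone, so part of their correlation was built in. Nothing is read from these correlations.

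Genes with the most similar profile were sought among 17172 genes, by Pearson's r over the 16 arrays. For Klrd1 the nearest 5 were Runx2 (r = 0.935), Cd300c (0.933), Rab33b (0.930), Ptger4 (0.930) and Pml (0.924). Runx2 encodes a transcription factor used by pDCs and bone-forming cells, Cd300c a myeloid surface receptor and Ptger4 a prostaglandin E2 receptor. Runx2 and Cd300c differed by -2.96 and -2.03 between tumor-bearing and tumor-free CDPs. For Cd96 the nearest were Fbxl17 (0.868), Arhgap32 (0.862), Fam102a (0.859), Tesk1 (0.859) and Camk1 (0.855), with CDP differences between -1.76 and -0.41. The 2 lists shared no gene. Klrd1 and Cd96 were themselves lower in tumor-bearing CDPs, so a search by their profiles favoured genes lower there. Nothing is read from these CDP differences.

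Most Klr genes lie in the NK gene complex on chromosome 6. Between the outermost member probes, chr6:128729611-129815749 on build mm9, the array holds 52 probes with 41 names, of which 27 were tested and 15 were above background on no array. Beside Klrd1, the calls among these in tumor-bearing CDPs were Clec1a, which encodes a C-type lectin of myeloid and endothelial cells (-2.26), and the unnamed probe A_55_P2053302 (-4.12), both lower. None was called in MDPs. Klre1, whose probe lies nearest to Klrd1 on its centromeric side, differed by -0.60 in CDPs (limma adjusted p = 0.738). Klrb1b differed by 1.32 (limma adjusted p = 0.666). Clec9a, a marker of conventional dendritic cells in this span, differed by -3.45 in CDPs (limma adjusted p = 0.113). In MDPs it differed by -3.77 (limma adjusted p = 0.259). Clec9a was called in CDPs with normexp background correction and with the slide as a random block.

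Other NK-type receptors gave no call for tumor, although Cd160, a receptor of NK and T cells, was called lower in CDPs with the slide as a random block (-0.87, limma adjusted p = 0.332 without it). Of 27 on the array 15 were tested, with a median difference of 0.09 in CDPs and -0.55 in MDPs, beside 0.07 and -0.11 over all 17256 tested genes with a symbol. Ncr1, which encodes the NK marker NKp46, was above background on all 16 arrays at -2.92 ± 0.67 in tumor-free and -2.78 ± 0.18 in tumor-bearing CDPs. Cd244, the receptor 2B4, had the highest signal of the list and differed by 0.38 (limma adjusted p = 0.656). Klrg1, Tigit and Klra6 were above background on no array. Klra2, an inhibitory Ly49 receptor also called Ly49B, was higher in CDPs than MDPs by 2.63 in tumor-free mice (limma adjusted p = 0.000476) and in tumor-bearing mice as well (limma adjusted p = 1.69e-05).

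Adaptors and kinases through which these receptors signal gave no call for tumor among 12 tested of 14. Tyrobp (DAP12), Fcer1g and Vav1 led the list by signal. Their differences in CDPs were 0.18, -0.10 and 0.15, and the median of the list was 0.01 in CDPs and -0.07 in MDPs. Fyn, a Src-family kinase, differed by -0.97 in CDPs (limma adjusted p = 0.111) and was called lower with the slide as a fixed or random block and without tumor-bearing CDP replicate 5. Hcst (DAP10), the partner of NKG2D, differed by 0.50 in CDPs (limma adjusted p = 0.325).

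Ligands of the members were also not called in either progenitor, at 13 tested genes and medians of -0.01 in CDPs and -0.11 in MDPs. H2-T23, the ligand of CD94 with NKG2A, was among the brightest and differed by -0.01. The largest values belonged to NKG2D ligands. Raet1c was above background on 2 of 4 tumor-free and 4 of 4 tumor-bearing CDP arrays and was higher by 3.09 (SE 0.79, limma adjusted p = 0.068), from -5.53 ± 1.31 to -2.45 ± 0.34. In MDPs it was higher by 2.22 (limma adjusted p = 0.390). The CDP call was gained with quantile normalization, in the deposited value table and with the slide as a fixed or random block, and the MDP call with the random block. Ulbp1, which encodes the NKG2D ligand MULT1, went the other way, by -0.71 in CDPs (limma adjusted p = 0.127), and was called lower with the slide as a random block and without tumor-bearing MDP replicate 4. Raet1e differed by 2.87 in CDPs (limma adjusted p = 0.267). Genes of the Rae-1 family are closely related in sequence, so their probes may not be told apart. Pvr was above background on at most 2 of 4 arrays of any group.

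Cytotoxic effector genes and regulators of NK and innate lymphoid development gave no call for tumor among 8 and 13 tested genes. Among effectors Nkg7, Cst7 and Prf1, which encodes perforin, had the highest signals, and Prf1 differed by 0.53 in CDPs (limma adjusted p = 0.809). Gzmb, Ifng, Xcl1 and Serpinb9 were above background on no array. Of the developmental regulators Il15ra, Nfil3 and Prdm1 were the brightest by signal, and the median difference was 0.18 in CDPs and -0.30 in MDPs. Eomes, a factor of mature NK cells, was above background on at most 2 arrays of a group. Markers of T cells (12 tested) and B cells (6 tested) had no call for tumor either. The summed T cell marker signal (log2 of the sum over 17 genes) was 1.38 to 2.62 in tumor-free and 1.64 to 2.56 in tumor-bearing CDPs.

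Some markers of dendritic cells were also lower where Klrd1 and Cd96 were. Of 10 pDC markers tested, 3 fell in tumor-bearing CDPs, where 0.988% of all probes were called lower: Spib, a transcription factor of pDCs (-3.13, limma adjusted p = 0.021), Runx2 (-2.96, limma adjusted p = 0.00154) and Bst2 (-0.69, limma adjusted p = 0.038). Without tumor-free CDP replicate 2 or 5 or tumor-bearing CDP replicate 3 or 4 the Spib call was lost, and the Bst2 call was lost without any single CDP array other than tumor-bearing replicate 2 or 5, while Runx2 was called in all 8 of these fits. With only the compared groups fitted, none of these 3 was called, and the pDC marker Irf7 was. The methods' t-test after Benjamini-Hochberg adjustment called none of them, and normexp background correction lost Bst2. Of the 10, 7 had a lower mean in tumor-bearing CDPs and 3 a higher one, with a median of -0.73. Over all tested genes with a symbol, 7388 of 17256 were lower and the median was 0.07. Irf7 (-1.37), Cox6a2 (-0.91), Tcf4 (-0.77, limma adjusted p = 0.0543) and Ly6d (-0.40) were lower without a call in the main fit. Tcf4 was called with quantile normalization, the filter on all 16 arrays, slide or replicate blocks and without tumor-bearing CDP replicate 5. The 3 higher were Siglech, a defining pDC marker (0.38, limma adjusted p = 0.802), Ccr9 (0.80) and Pacsin1 (0.28). The summed pDC list signal overlapped, at 4.25 to 5.13 in tumor-free and 4.48 to 5.40 in tumor-bearing CDPs. This sum is over unlogged signals, so the brightest marker, Siglech, weighs most in it. Of 8 conventional dendritic cell (cDC) markers tested, Cd209a fell in both CDPs (-3.25, limma adjusted p = 0.00261) and MDPs (-3.55, limma adjusted p = 0.0114), the latter not without tumor-bearing MDP replicate 4. The summed cDC marker signal was 3.13 to 3.69 in tumor-free and 1.55 to 2.57 in tumor-bearing CDPs, without overlap. Spib and Cd209a are also genes that the study names from these cells, so their fall is not independent of it. Kit fell as well in CDPs (-1.34, limma adjusted p = 0.00441), and of 6 neutrophil markers tested 1 was called higher, the granule collagenase Mmp8 (1.87, limma adjusted p = 0.00362). The 6 split into 3 higher and 3 lower, with Camp at -0.65, Ltf at -0.45 and Ngp at -0.25. S100a8 (2.19, limma adjusted p = 0.104) and S100a9 (0.88, limma adjusted p = 0.453) were higher without a call. S100a8 was called in CDPs with normexp background correction and with the slide as a fixed or random block. The part of these markers in the Klrd1 and Cd96 differences was not tested.

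**Figure D4:**
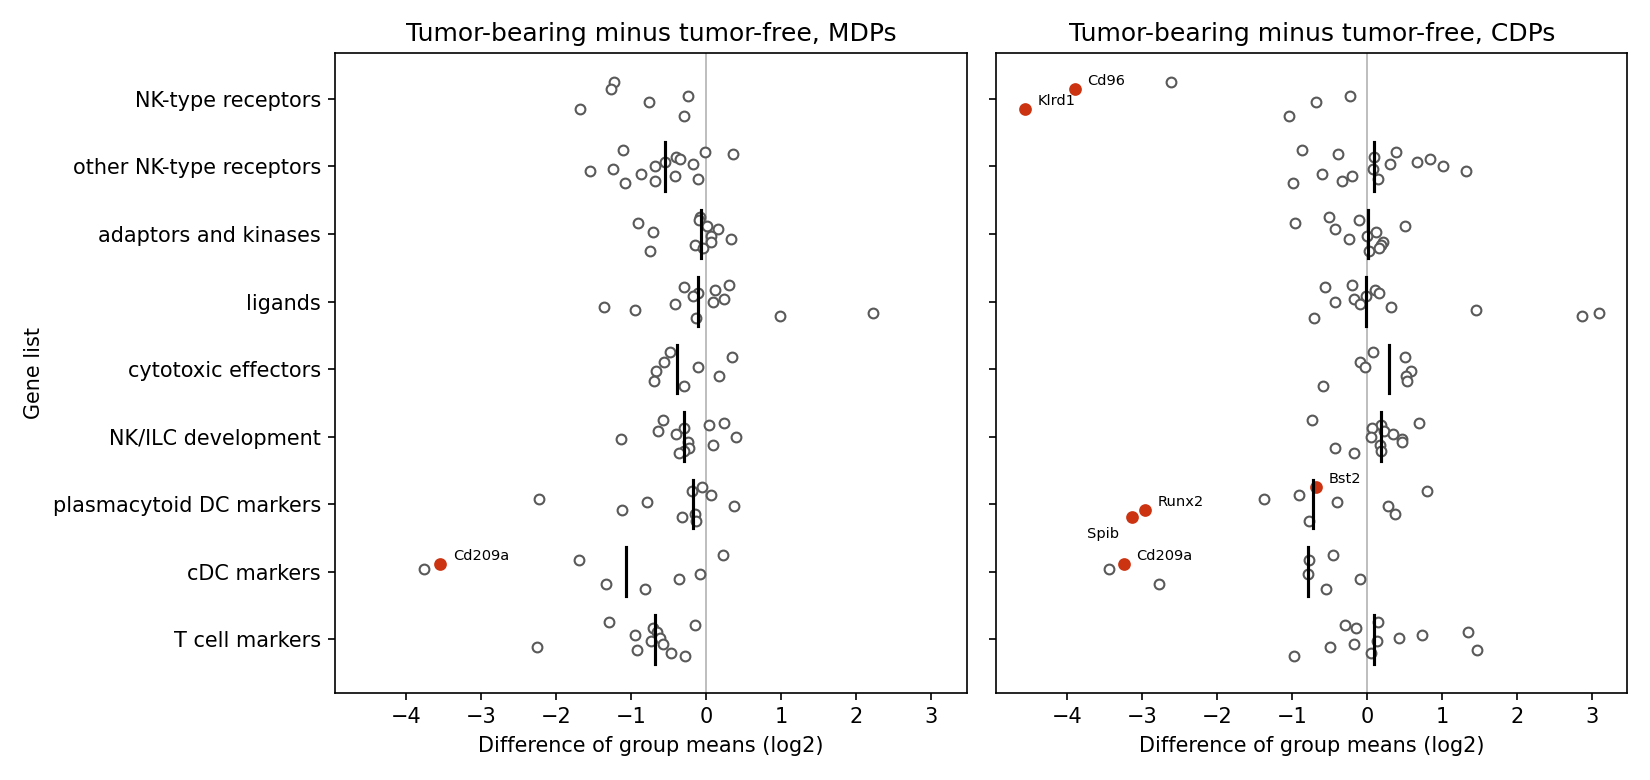
Differences between tumor-bearing and tumor-free mice (log2) in MDPs (left) and CDPs (right) for every tested gene of 9 lists, 1 point a gene by its brightest probe. Filled points passed an adjusted p under 0.05 and a fold above 1.5 and black bars are list medians, left out for the NK-type receptors because CDP values chose them. The filled points are Klrd1 and Cd96 (past the thresholds, not tested), Spib, Runx2, Bst2 and Cd209a in CDPs and Cd209a in MDPs.

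Basophil and mast cell, platelet and megakaryocyte, and erythroid markers gave no call for tumor in either progenitor, at 6, 6 and 5 tested genes. In CDPs the hemoglobin gene Hba-a1 (-1.44, limma adjusted p = 0.112) was called lower with the slide as a fixed or random block and without tumor-free CDP replicate 5, and Hbb-b1 (-1.82, limma adjusted p = 0.221) with the random block. Platelet and megakaryocyte markers had median differences of -0.40 in CDPs and -0.83 in MDPs, and erythroid markers -1.44 and -1.13.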

How the data were processed

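Bone marrow MDPs and CDPs were profiled on single-colour (Cy5) Agilent mouse arrays. The deposited scanner files hold spot intensity from Agilent Feature Extraction 11.5.1.1, and the processed signal in them is already background-corrected. The authors also deposited a table of log2 values for 26793 probes, whose 16 columns each matched their own array best and lay within a median of 0.0025 of quantile-normalized signal (medians 10.22 to 10.33); the submitters' notes name limma. Coordinates are those of the array files (mm9).

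Control and outlier spots were left out, spots of a probe averaged, and log2 signal scaled to the 75th percentile of each array. The 4 group means were estimated together from the 16 arrays in limma (version 3.58.1, R 4.3.3). Probes entered the fit if 3 or more arrays of any group had them above background. Calls need a Benjamini-Hochberg adjusted p under 0.05 and a fold above 1.5, as in the study's methods. Single genes also had an exact two-sided permutation test. Where a group was at background on all arrays, "at least" folds were sought and none exceeded 1. A gene is given by its brightest tested probe unless named. The fit was tested on simulated data. The number of arrays limits precision, and p-values measure the spread between samples that each pooled a pair of mice.

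The genes and lists were chosen with earlier results of these data known. All 8 genes are named, with the 5 genes closest in profile to Klrd1 and Cd96. Of each list the genes called for tumor are named, or the 3 brightest, and others where a result turned on them. List symbols not found on the array are Klra3, Klrc2, Raet1d, Zfp683 and Ly6g. Alternatives changed background correction, scaling, filter, value table, blocks, arrays fitted, test and the arrays left out.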

Additional observations from a re-analysis of the deposited data

Results flagged for a closer look

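Among 25 gene and group combinations, 4 held an array whose gap to the nearest of the other 3 exceeded Dixon's 95% critical share of the range of its group. Chance gives about 1 in 20 for normal and independent values, a rate that need not hold where arrays are at background. Klrd1 read -0.55 in tumor-free CDP replicate 5, with the nearest array at -2.17. Klrk1 read -2.75 on the same array, with the nearest at -3.94. Cd96 read -3.82 in tumor-bearing CDP replicate 2, with the nearest at -7.28. The other 3 arrays of that group were at background, so an array above background stands apart there. Klrb1f read 0.81 in tumor-free MDP replicate 3, with the nearest at 0.37.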

How the results depend on the processing

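Klrd1 and Cd96 were chosen by their CDP values, so what follows for the CDP comparison is a description and no support. Both stayed lower in tumor-bearing CDPs under the 11 alternatives that gave them a value, which the filter on all 16 arrays did not. The number of members past the thresholds there was 2, and it became 1 with normexp background correction (Klrd1), 0 with a filter on all 16 arrays, with only the compared groups fitted and with the methods' t-test after Benjamini-Hochberg adjustment, and 5 with that test unadjusted. It was 1 to 2 with an array left out. No member was called for tumor in MDPs, or with any array left out (0 to 0), but 1 was (Klrb1f) with the slide as a random block and with the unadjusted t-test. The Klrb1f step was called in tumor-free mice in 3 of 8 fits without an array (0 to 1 members) and in tumor-bearing mice in 8 of 8 (1 to 1), where it was 0 with only the compared groups fitted and with the adjusted t-test (adjusted p = 0.086 and 0.121 in these fits, 0.000414 to 0.121 over its alternatives).

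Uncalled differences of Klrb1c and Klrk1 changed sign with the scaling or background correction. In MDPs the tumor difference was 0.29 (quantile) and 0.29 (deposited value table) for Klrb1c, and 0.28 and 0.28 for Klrk1. The Klrb1c step was -0.38 (normexp), -0.0575 (quantile) and -0.058 (value table) in tumor-free mice. In tumor-bearing mice it was -0.10, -0.67 and -0.67, and -0.27 and -0.21 with the slide as a fixed and random block. The Klrk1 step in tumor-bearing mice was -0.0218, -0.67 and -0.67. With an array left out these steps were -0.12 to 0.25, -0.21 to 0.28 and -0.10 to 0.22.

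Over all probes, the 17 calls in MDPs (9 higher, 8 lower) became 6 with normexp (4 and 2), 11 with quantile normalization (8 and 3), 10 without a filter, 11 with the filter on all 16 arrays, 7 in the value table (5 and 2), 45 and 203 with the slide as a fixed and random block, 5 with only the compared groups, 1015 with the unadjusted and 1 with the adjusted t-test, and 1 to 43 with an array left out. The 491 in CDPs became 1251, 1440, 55, 2070 and 3 with the slide blocks, the compared groups and both t-tests, and 153 to 578 with an array left out. The tumor-free step, with 1665 calls, gave 2923 and 3040 with the slide blocks, 2993 with the unadjusted t-test and 1116 to 1494 with an array left out. The tumor-bearing step, with 1985, gave 793, 4106 and 584 with the compared groups and both t-tests, and 1125 to 3275 with an array left out. The 6 list genes called in CDPs became 11, 16, 1, 25 and 0 under the slide blocks, compared groups and t-tests, and 4 to 8 with an array left out. The 1 with the compared groups was Irf7, which is not among the 6. The 1 called in MDPs became 0 with normexp, the filter on all 16 arrays and the adjusted t-test, 3 with the random block, 12 with the unadjusted t-test, and 0 to 2 with an array left out (0 without tumor-bearing MDP replicate 4, 2 without replicate 5). The causes were not tested.

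Replicate numbers are shared by the groups, but same-numbered arrays deviated together at r of -0.557 to 0.44 between tumor-free and tumor-bearing MDPs, 0.021 to 0.481 between those CDPs, -0.634 to 0.065 between tumor-free MDPs and CDPs and -0.053 to 0.457 between tumor-bearing ones. In these comparisons 1, 2, 0 and 2 of 4 correlated best with their own number, so the numbers were not taken to pair the samples. Arrays on the same slide deviated together at r of 0.159 to 0.647 between the MDP groups and 0.012 to 0.481 between the CDP groups. Between tumor-free MDPs and CDPs this was 0.144 to 0.791, and between tumor-bearing ones -0.217 to 0.139. The main fit did not include the slide. With the replicate number as a block, 10 probes were called in MDPs, Klrb1f differed in MDPs at a limma adjusted p = 0.356, and no member call changed. Klrd1, Cd226 and Cd96 are near background in some groups, which limits their differences there.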
